A study of Mus musculus with 16 samples.

Results

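The 10 immediate early genes examined here are early genes of T cell activation, followed across 4 groups of sorted CD8 T cells. They are the zinc finger factors Egr1, Egr2 and Egr3, the AP-1 subunits Fos, Fosb, Jun and Junb, the early activation antigen Cd69, the ERK phosphatase Dusp2 and the transcription factor gene Myc. The members were taken by name, each through its only single-symbol probe set, and 10 of 10 were measured among 22180 genes. Every member lay above the array median on all 16 arrays. The groups, of 4 arrays each, were effector cells with Il4i1 knockout (KO) bone marrow, effector cells with wild-type (WT) bone marrow, memory cells with KO bone marrow and memory cells with WT bone marrow. All cells came from the spleens of female mice of the strain labelled C56BL/6. All of these mice, WT included, were bone marrow chimeras that had been given Eµ-TCL1 leukaemia cells, a model of chronic lymphocytic leukaemia (CLL), 5 weeks before the sort. Effector cells were gated as CD44+CD127- and memory cells as CD44high CD127high. The genotype is that of the transplanted marrow, and how many host cells remained is not given in the sources used here. Nothing in the labels says that replicates came from different mice, and p-values therefore reflect the variation among these samples, which may be technical.

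Immediate early genes are transcribed within minutes of a stimulus, without new protein synthesis, and their transcripts decay quickly. In T cells the antigen receptor turns them on through the Ras and ERK kinases, calcium and NF-kB. The same genes, above all Fos, Fosb, Jun, Junb and Egr1, also respond to tissue dissociation, warming, sorting and other stress. FOS and JUN proteins pair into AP-1, EGR2 and EGR3 hold T cell activation in check, CD69 keeps cells in tissue by removing the sphingosine 1-phosphate receptor S1PR1 from the surface, DUSP2 switches off ERK in the nucleus, and MYC drives growth and metabolism. Il4i1 encodes a secreted amino acid oxidase. The comparisons ask whether these transcripts differ between KO and WT within each subset, and between effector and memory cells within each genotype.

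The promoters of 3 AP-1 members and of Egr2 are shown for the short control motifs close to their start sites. Of the members that passed a test, Egr2 is the one shown, and Egr1, Cd69 and Myc are not. The promoters come from RefSeq on GRCm38.p6 and run from 250 bases before to 50 bases after the annotated start on the gene's strand. Those of 6 of the 10 members were searched. Capitals mark TATAAA, the CArG box bound by serum response factor, and TGACG, the half-site of cAMP response elements, which is printed as CGTCA where it lies on the other strand. Fos is at chr12:85473640-85473939 (plus strand), Fosb at chr7:19309996-19310295 (minus strand), Jun at chr4:95052173-95052472 (minus strand) and 1 of the Egr2 starts at chr10:67537619-67537918 (plus strand).
Fos: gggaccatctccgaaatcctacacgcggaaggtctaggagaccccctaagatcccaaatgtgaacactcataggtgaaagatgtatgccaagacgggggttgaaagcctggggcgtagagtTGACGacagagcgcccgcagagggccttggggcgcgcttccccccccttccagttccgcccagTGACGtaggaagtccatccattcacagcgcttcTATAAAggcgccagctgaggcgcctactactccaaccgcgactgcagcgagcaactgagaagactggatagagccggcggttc
Fosb: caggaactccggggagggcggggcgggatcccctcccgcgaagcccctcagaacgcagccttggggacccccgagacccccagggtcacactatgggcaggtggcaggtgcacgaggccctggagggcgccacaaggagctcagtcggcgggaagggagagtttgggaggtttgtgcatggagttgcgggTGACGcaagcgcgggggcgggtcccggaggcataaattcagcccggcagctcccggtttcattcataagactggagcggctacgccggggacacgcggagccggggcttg
Jun: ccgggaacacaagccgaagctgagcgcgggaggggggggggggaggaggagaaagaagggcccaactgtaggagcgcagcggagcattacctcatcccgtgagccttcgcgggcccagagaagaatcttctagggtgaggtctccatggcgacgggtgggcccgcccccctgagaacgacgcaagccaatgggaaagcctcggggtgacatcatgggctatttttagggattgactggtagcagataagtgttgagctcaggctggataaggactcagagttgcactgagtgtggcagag
Egr2: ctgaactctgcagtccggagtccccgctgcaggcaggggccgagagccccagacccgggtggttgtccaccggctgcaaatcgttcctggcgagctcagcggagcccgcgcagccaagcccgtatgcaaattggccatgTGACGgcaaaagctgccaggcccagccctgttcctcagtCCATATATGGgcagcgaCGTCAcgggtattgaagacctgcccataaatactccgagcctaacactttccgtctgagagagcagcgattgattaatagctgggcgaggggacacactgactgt
In the Fos window TATAAA began 33 bases before the start, and TGACG matches began 129 and 66 bases before it. The Fosb window held a TGACG match 60 bases before the start. Egr2 held a CArG box 72 bases before the start, between TGACG matches 111 and 55 bases before it. A CArG box was in 4 of the 5 Egr2 windows, of which 1 is printed, but not at 4 separate sites. The windows that begin at 67537619, 67537620 and 67537680 overlap and share the same CArG box, while that at 67537316 held another. In the Junb window TATAAA lay at the start itself and TGACG 106 bases before it. In the Jun window none of the motifs searched was found, which says only that these letters were not in it. The search covered both strands. Over 32851 promoter windows, 1.79% held the full cAMP response element TGACGTCA, 20.8% its half-site TGACG, which the full element contains, and 7.81% the AP-1 site TGANTCA. The EGR site GCGTGGGCG was in 0.612%, TATAAA in 13.6% and the CArG box in 1.63%.

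The sorted cells carried the markers of their labels. Cd8a means lay between 9.84 and 10.21 and Cd3e means between 11.63 and 11.96 over the 4 groups, on the log2 scale used for all values here. Il7r, which encodes the gate protein CD127, averaged 5.69 ± 0.68 in effector KO, 4.04 ± 0.29 in effector WT, 11.08 ± 0.14 in memory KO and 10.71 ± 0.29 in memory WT (SD, n = 4 each). Within effector cells Il7r was 1.65 ± 0.25 (SE) higher in KO (limma, adjusted p = 0.0183). Il4i1 has no probe set of its own, since Nup62 and Il4i1b share it, and the genotype could not be checked by expression. The shared probe set read 5.74 to 5.99 in effector KO, 5.88 to 6.02 in effector WT, 5.54 to 5.86 in memory KO and 5.93 to 6.05 in memory WT. The array labelled Effector KO 4 stood apart, with a Pearson correlation over genes of 0.965 to 0.974 with the other 15 arrays, while other pairs reached 0.971 to 0.994. The members' differences between effector KO and WT, and their calls between effector and memory KO, are also given without it. So are the values of other named genes that this array changes. Without it the Il7r difference was 1.63 and no longer passed (adjusted p = 0.0642).

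**Figure D1:**
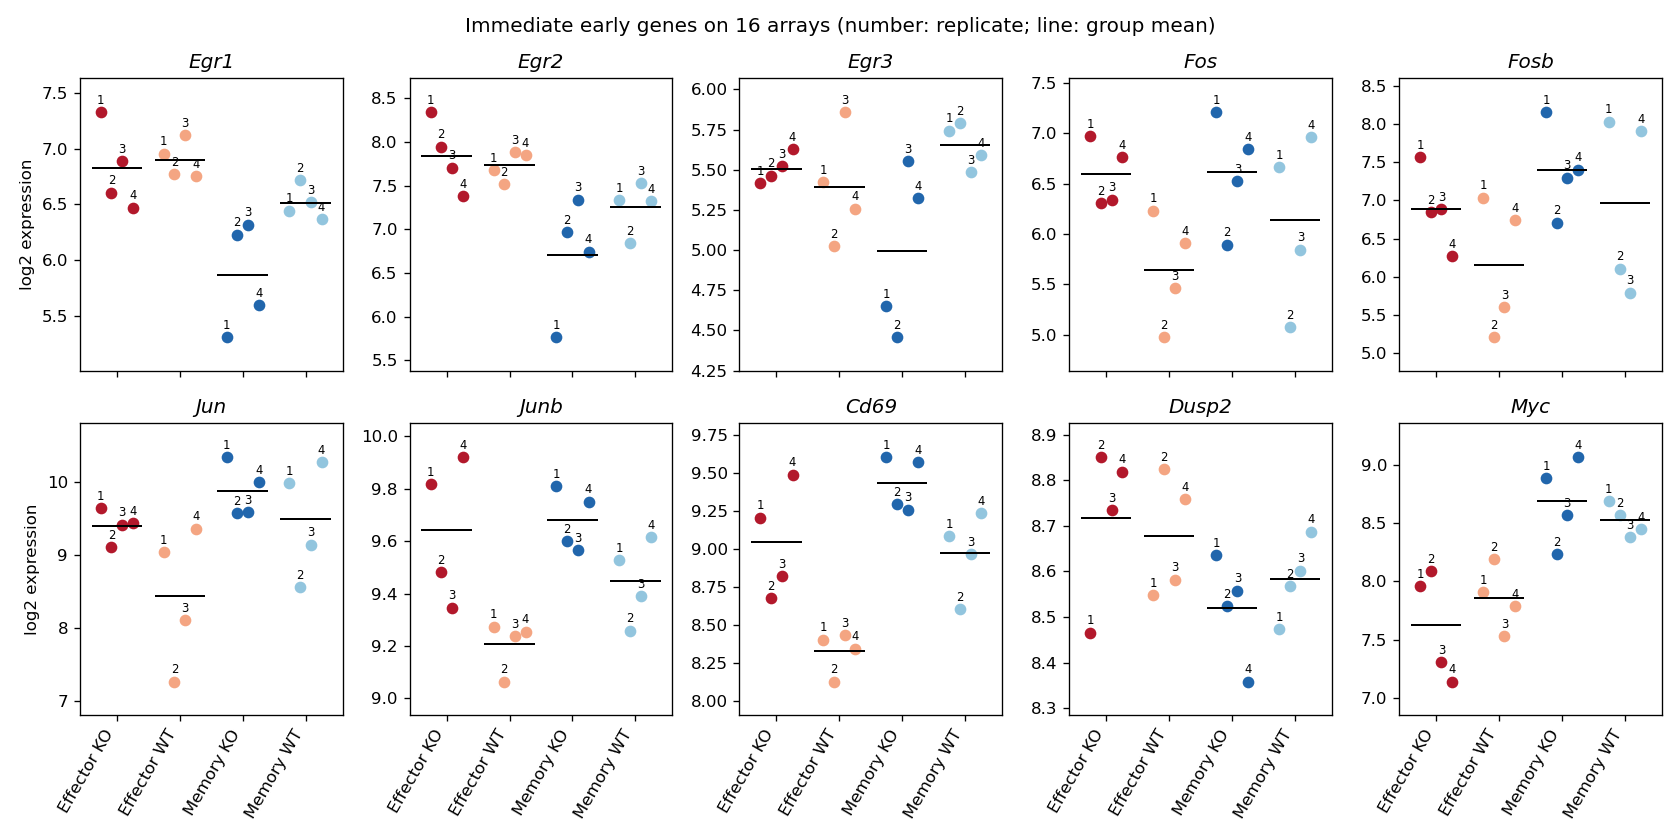
Log2 expression of each of the 10 genes (vertical axes, own range per panel) on the 16 arrays of the groups named below each panel. Each numbered point is 1 array with its replicate number and each line is a group mean. Memory KO holds the lowest Egr1 and Egr2 arrays, at 5.31 and 5.77, and effector WT holds the lowest Fos, Fosb, Jun, Junb and Cd69 arrays.

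Egr1, on chromosome 18 (34861207 to 34864956, GRCm38.p6), encodes the EGR factor that responds most broadly to growth factor, receptor and stress signals. It read 7.33, 6.60, 6.89 and 6.47 in effector KO and 6.96, 6.77, 7.13 and 6.76 in effector WT. It read 5.31, 6.23, 6.32 and 5.60 in memory KO and 6.44, 6.72, 6.52 and 6.37 in memory WT. From low to high the group means ran memory KO, memory WT, effector KO and effector WT, and among these neighbours only memory KO and memory WT did not overlap. Every memory KO array lay below every memory WT array, and every effector array lay above every memory array of the same genotype.

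Egr2, on chromosome 10 (67534469 to 67542188), encodes a factor that restrains T cell activation and is needed for anergy. Its values were 8.34, 7.95, 7.70 and 7.38 in effector KO against 7.68, 7.52, 7.88 and 7.85 in effector WT. In memory cells they were 5.77, 6.96, 7.34 and 6.74 in KO against 7.33, 6.84, 7.52 and 7.32 in WT. Memory KO had the lowest mean, 6.70 ± 0.67 (SD, n = 4), and Memory KO 1, at 5.77, read lowest of the 16 arrays. Effector KO lay above memory KO on every array.

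Egr3, on chromosome 14 (70077317 to 70082613), encodes a close relative of EGR2 with overlapping roles in anergy. It stood at 5.41, 5.46, 5.52 and 5.63 in effector KO, at 5.42, 5.02, 5.86 and 5.26 in effector WT, at 4.65, 4.46, 5.55 and 5.32 in memory KO and at 5.74, 5.79, 5.49 and 5.59 in memory WT. Neighbouring groups in the order of means overlapped throughout, and 2 memory KO arrays, numbers 1 and 2, lay below all other arrays of the series.

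Fos, on chromosome 12 (85473890 to 85477274), encodes the short-lived AP-1 subunit that needs a JUN partner to bind DNA. It read 6.97, 6.31, 6.34 and 6.77 in effector KO against 6.23, 4.98, 5.46 and 5.91 in effector WT. In memory cells the values were 7.21, 5.89, 6.53 and 6.84 in KO against 6.67, 5.08, 5.85 and 6.96 in WT. Every effector KO array lay above every effector WT array, while the memory groups overlapped.

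Fosb, on chromosome 7 (19302696 to 19310118), encodes a FOS relative and lies 25.5 Mb from Il4i1 on the same chromosome. Its values were 7.57, 6.85, 6.89 and 6.27 in effector KO against 7.03, 5.21, 5.61 and 6.74 in effector WT. In memory KO they were 8.15, 6.71, 7.30 and 7.40, against 8.03, 6.11, 5.80 and 7.91 in memory WT. All neighbouring groups overlapped, and the arrays of memory WT alone spread more widely than the 4 group means.

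Jun, on chromosome 4 (95049036 to 95052222), encodes the AP-1 subunit that pairs with FOS or with itself and is activated by the stress kinase JNK. It read 9.65, 9.11, 9.42 and 9.44 in effector KO against 9.04, 7.27, 8.12 and 9.36 in effector WT. In memory cells it read 10.35, 9.58, 9.60 and 10 in KO against 9.99, 8.56, 9.15 and 10.28 in WT. Effector WT held the 2 lowest arrays of the series, numbers 2 and 3, but overlapped effector KO through array 4.

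Junb, on chromosome 8 (84976909 to 84978748), encodes a JUN relative that sustains effector gene expression. It stood at 9.82, 9.48, 9.35 and 9.92 in effector KO against 9.27, 9.06, 9.24 and 9.26 in effector WT. In memory KO it stood at 9.81, 9.60, 9.57 and 9.75, against 9.53, 9.26, 9.39 and 9.61 in memory WT. Every effector WT array lay below every effector KO array, and effector WT had the lowest mean, 9.21 ± 0.10 (SD, n = 4).

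Cd69, on chromosome 6 (129267324 to 129275375), encodes the surface lectin that appears first on activated lymphocytes and stays on tissue-resident cells. It read 9.21, 8.68, 8.82 and 9.49 in effector KO against 8.40, 8.12, 8.43 and 8.34 in effector WT. In memory cells it read 9.61, 9.30, 9.26 and 9.57 in KO against 9.08, 8.60, 8.96 and 9.24 in WT. The KO arrays lay above the WT arrays without overlap in both subsets, and in WT the effector arrays lay below all memory arrays.

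Dusp2, on chromosome 2 (127336159 to 127338377), had group means that spanned only 0.20 on the log2 scale. They were 8.72 ± 0.18 in effector KO, 8.68 ± 0.13 in effector WT, 8.52 ± 0.12 in memory KO and 8.58 ± 0.09 in memory WT (SD, n = 4 each), and all neighbouring groups overlapped.

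Myc, on chromosome 15 (61985341 to 61990361), read 7.96, 8.09, 7.31 and 7.14 in effector KO and 7.91, 8.19, 7.53 and 7.79 in effector WT. It read 8.89, 8.24, 8.57 and 9.07 in memory KO and 8.69, 8.57, 8.38 and 8.45 in memory WT. The effector arrays lay below the memory arrays of the same genotype without overlap, while KO and WT overlapped in both subsets.

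In effector cells, none of the 10 genes passed the test between KO and WT, and 8 of them had a higher mean in KO. The largest differences were those of Jun, at 0.96 ± 0.40 (SE), and Fos, at 0.95 ± 0.37, each 1.94-fold on the linear scale. Fosb differed by 0.74 ± 0.51, Cd69 by 0.72 ± 0.17 and Junb by 0.43 ± 0.12. The Egr genes lay close to no difference, with Egr1 at -0.08 ± 0.21, Egr2 at 0.11 ± 0.27 and Egr3 at 0.12 ± 0.21, and intervals that reached from -0.53 to 0.68 over the trio. Dusp2 was at 0.04 ± 0.10 and Myc at -0.23 ± 0.21. Adjusted p-values from limma over all genes ran from 0.285 for Cd69 to 0.927 for Egr1.

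By this rule 12 genes of the series passed in effector KO against effector WT, a share of 0.0541%, so few genes of any kind were called. At an unadjusted p under 0.05 there were 4 members, Fos, Jun, Junb and Cd69, and 2067 genes in all. Without overlap between groups there were 3 of the 10 members, Fos, Junb and Cd69, each higher in KO, against 4.65% of all genes in either direction. The members' median difference was 0.28, against 0.01 over all genes. Without the array that stands apart Egr1 was at 0.04, Egr2 at 0.26, Egr3 at 0.08, Dusp2 at 0.01 and Myc at -0.07. In that fit the differences were 0.90 for Fos, 0.95 for Fosb, 0.95 for Jun, 0.34 for Junb and 0.58 for Cd69. Il7r, the gene of the gate, also differed between KO and WT in effector cells, by 1.65 as given above. The part of the gate in the members' values was not tested.

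In memory cells, again none of the 10 genes passed between KO and WT, and the genes lay on both sides. Cd69, Fos, Fosb, Jun, Junb and Myc had higher means in KO, at 0.46 ± 0.17 (SE), 0.48 ± 0.37, 0.43 ± 0.51, 0.39 ± 0.40, 0.23 ± 0.12 and 0.17 ± 0.21. The Egr trio had lower means in KO, with Egr3 at -0.66 ± 0.21, Egr1 at -0.65 ± 0.21 and Egr2 at -0.55 ± 0.27. Dusp2 was at -0.06 ± 0.10. The adjusted p-values ran from 0.245 for Egr3 to 0.878 for Dusp2, and 3 members, Egr1, Egr3 and Cd69, were at an unadjusted p under 0.05, as were 2500 of all genes.

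Over all genes 25 passed in memory KO against memory WT, a share of 0.113%. Non-overlapping arrays were seen for Cd69, higher in KO, and Egr1, lower in KO, against 6.49% of all genes in either direction. The median of the members was 0.20, against 0.02 over all genes. Markers of B and leukaemia cells had lower means in memory KO for 10 of 11 measured genes, with a median of -0.63 and Cd22 passing at -1.04 ± 0.16 (limma, adjusted p = 0.0145). Their summed signal, 11.27 to 11.61 in memory KO and 11 to 11.91 in memory WT on the log2 scale, overlapped, and their part in the Egr values was not tested. In bulk samples, fewer cells of a type and less RNA per cell cannot be told apart.

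The difference between the subsets in the KO effect was tested as an interaction, effector minus memory. No member passed, and no gene of the series did (0%), although 1296 genes reached an unadjusted p under 0.05. Egr3 had the smallest p among the members, with an interaction of 0.77 ± 0.30 (SE, unadjusted p = 0.0187 by limma, adjusted p = 0.841). Egr2 stood at 0.66 ± 0.38 and Egr1 at 0.57 ± 0.30, so the trio lay on the same side. Fos, Jun and Cd69 were at 0.47 ± 0.52, 0.57 ± 0.57 and 0.26 ± 0.24, with intervals that include 0, as do those of Egr1 and Egr2.

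**Figure D2:**
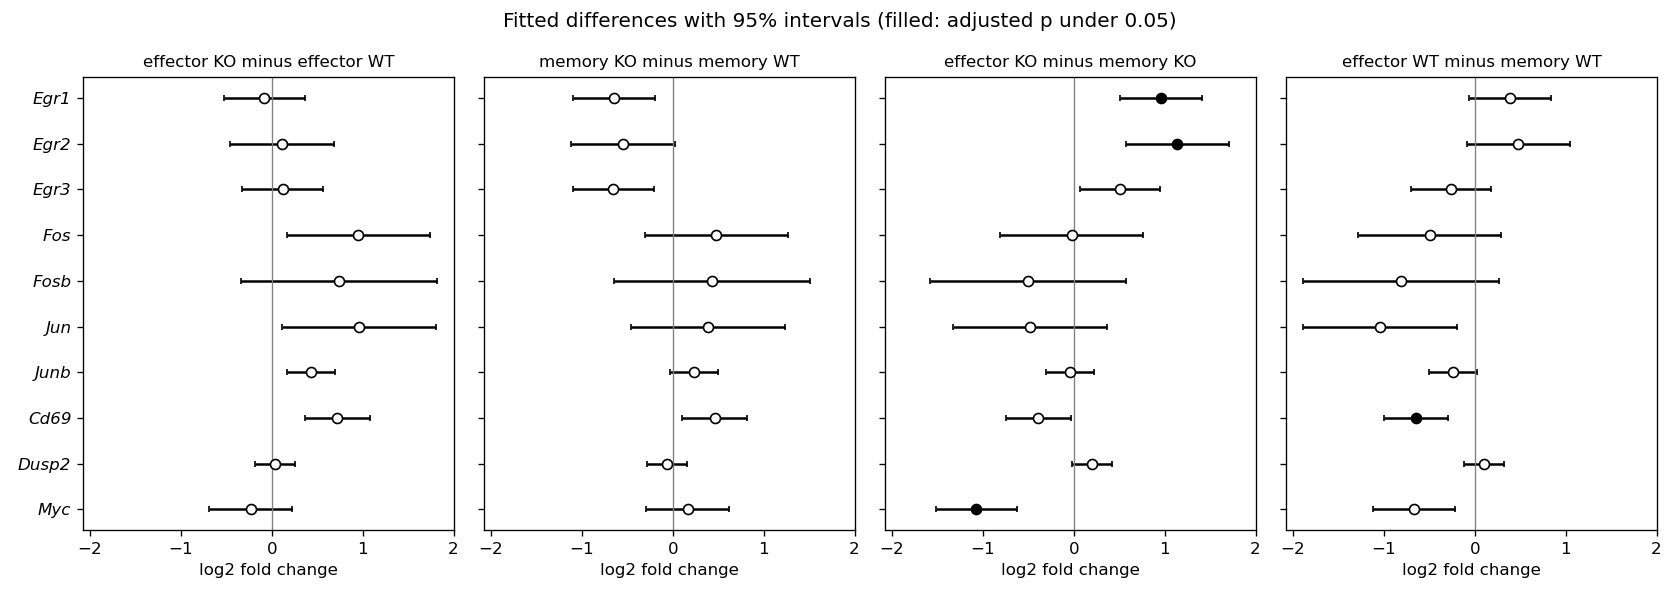
Fitted log2 fold change of the 10 genes (rows) in 4 comparisons (panels), first-named group minus second, with 95% intervals from limma. Filled points passed at adjusted p under 0.05, which in KO holds for Egr1, Egr2 and Myc between effector and memory cells and in WT for Cd69.

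Between effector and memory cells of KO marrow, 3 of the 10 members passed. Egr1 was 1.95-fold higher in effector cells (0.96 ± 0.21 SE, limma adjusted p = 0.0103) and Egr2 was 2.20-fold higher (1.14 ± 0.27, adjusted p = 0.0149). Myc was lower in effector cells, with a log2 difference of -1.07 ± 0.21 (adjusted p = 0.00556) and a mean 2.10-fold higher in memory KO. Egr3 was at 0.51 ± 0.21 (adjusted p = 0.167) and Cd69 at -0.39 ± 0.17 (adjusted p = 0.203), and neither passed. Fosb, Jun and Junb were at -0.50 ± 0.51, -0.48 ± 0.40 and -0.04 ± 0.12. Fos was at -0.02 ± 0.37 and turned to 0.02 under quantile normalization. Dusp2 was at 0.20 ± 0.10.

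The comparison called 1649 genes of the series, or 7.43%, with 696 higher and 953 lower in effector cells. Without overlap were Egr1, Egr2 and Myc, against 10.2% of all genes. The 3 calls held without the array that stands apart, at 1.08 for Egr1 (adjusted p = 0.00579), 1.29 for Egr2 (adjusted p = 0.0079) and -0.91 for Myc (adjusted p = 0.0123), all by limma, and there Cd69 passed too, at -0.53 (adjusted p = 0.045). Without Effector KO 1, Egr2 no longer passed (adjusted p = 0.0506). In a fit on the 8 arrays of these groups alone none of the calls held, with adjusted p-values of 0.0911 for Egr1, 0.104 for Egr2 and 0.0564 for Myc. With the replicate number as a block the 3 calls held and Jun passed too, at -0.48 (limma, adjusted p = 0.0256).

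Between effector and memory cells of WT marrow, Cd69 alone of the members passed in the fit without a replicate block, with a log2 difference of -0.65 ± 0.17 (SE, limma adjusted p = 0.047). This is a mean 1.57-fold higher in memory WT. Jun was at -1.04 ± 0.40 (adjusted p = 0.218), Fosb at -0.81 ± 0.51, Myc at -0.67 ± 0.21 (adjusted p = 0.115) and Fos at -0.49 ± 0.37. Egr1 and Egr2 were at 0.39 ± 0.21 and 0.48 ± 0.27, Egr3 at -0.26 ± 0.21, Junb at -0.24 ± 0.12 and Dusp2 at 0.10 ± 0.10, and none of these passed. Of all genes 715 passed, or 3.22%. Arrays did not overlap for Egr1, higher in effector cells, and for Cd69 and Myc, lower, against 13.2% of all genes. The call of Cd69 was lost in 12 of the 16 fits that left out 1 array, with adjusted p-values up to 0.146. With the replicate number as a block Jun passed beside Cd69 (limma, adjusted p = 0.000598 for Jun), though no label states that equal numbers are pairs.

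Markers of some other cells also differed between the subsets. The summed signal of 11 measured B and leukaemia cell markers was 9.46 to 10.29 in effector KO and 9.14 to 9.64 in effector WT, against 11.27 to 11.61 in memory KO and 11 to 11.91 in memory WT, on the log2 scale. Between effector and memory cells 3 of these markers passed as lower in KO and 9 in WT. Ighm, the heavy chain of IgM, averaged 9.56 ± 0.47 in effector KO, 8.93 ± 0.28 in effector WT, 11.33 ± 0.17 in memory KO and 11.09 ± 0.36 in memory WT (SD, n = 4 each). Of the 11 markers, 6 lay below the array median in effector KO, 7 in effector WT, 3 in memory KO and 2 in memory WT. The 10 myeloid markers summed to 8.23 to 8.71 in effector KO, 8.46 to 8.61 in effector WT, 8.97 to 9.79 in memory KO and 9.68 to 9.92 in memory WT. All 3 measured natural killer cell markers had lower means in effector than in memory cells of both genotypes, and 2 passed in KO and 1 in WT. None of 4 CD4 T cell markers and none of 4 platelet and erythroid markers passed in any comparison over all arrays. Since Myc, Cd69, Fos and Jun are also made by B and myeloid cells, the part of these cells in the members' differences was not tested.

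Receptor signalling and handling stress share the members as targets, so wider lists of both kinds were read beside them. Among 18 genes induced by the antigen receptor in T cells, none passed in effector KO against effector WT, where 9 had a higher and 9 a lower mean and the median was 0.02. The gene with the smallest p there, Tagap, a GTPase activator of T cells, was at 0.32 ± 0.12 (SE, limma adjusted p = 0.474). Tnfrsf9, the costimulatory receptor 4-1BB, was at -1.28 ± 0.50 (adjusted p = 0.488) and Irf4, a factor graded by receptor strength, at -0.48 ± 0.24, and without Effector KO 4 these were at -0.82 and -0.31. In memory KO against memory WT, 15 of the 18 had a lower mean, the median was -0.38, and 2 fell past the threshold. These were Ccl4, a chemokine gene, at -0.81 ± 0.13 (limma, adjusted p = 0.0234), and Ifng, the gene of interferon gamma, at -1.34 ± 0.24 (adjusted p = 0.0404). Ifng read 8.20, 8.70, 9.15 and 7.76 in memory KO against 9.62, 10.38, 9.62 and 9.54 in memory WT, with no overlap. Ccl3 was at -1.74 ± 0.36 (adjusted p = 0.0754) and Nr4a2, an orphan receptor gene of the Nr4a family, at -1.71 ± 0.45 (adjusted p = 0.17). The 11 ERK feedback genes, most of whose products damp the kinase that induces the Egr genes, had a lower mean in KO for 10 in effector cells (median -0.30) and for 9 in memory cells (median -0.21), and none passed. Dusp7, with the smallest p of this list in effector cells, went the other way, at 0.71 ± 0.26 there and 0.66 ± 0.26 in memory cells. Dusp6 was at -0.80 ± 0.29 in effector cells and Dusp4 at -1.43 ± 0.45 in memory cells. Without Effector KO 4 the effector differences were 0.41 for Dusp7 and -0.39 for Dusp6, and 8 of the 11 had a lower mean in effector KO.

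Genes induced by handling and stress were counted in the same way. Of 17 immediate early genes of cell handling, 15 had a higher mean in effector KO than in effector WT (median 0.18) and 11 in memory KO than in memory WT (median 0.14), and none passed. Zfp36, which destabilizes AU-rich transcripts, was at 0.62 ± 0.21 (SE, limma adjusted p = 0.459) in effector cells, and Ppp1r15a, a phosphatase subunit of the integrated stress response, at 0.82 ± 0.31 (adjusted p = 0.472). Without Effector KO 4 Zfp36 was at 0.41, and 17 of the 17 had a higher mean in effector KO. In memory cells Ier2 was at 0.33 ± 0.11 and Gadd45b at -0.47 ± 0.20. Of 14 measured heat shock genes 10 had a higher mean in KO in each subset, with medians of 0.10 and 0.05, and none passed. Hspa1a, which shares sequence with Hspa1b and is uncertain for that reason, was at 1.61 ± 0.86 in memory cells. Over all genes the medians were 0.01 in effector cells and 0.02 in memory cells. The lists overlap in part, since Ier3 belongs to the ERK and handling lists. Atf3 and Jund belong both to the handling list and to the list of other AP-1 genes read below. In memory KO the Egr trio and Dusp2 had negative differences from WT, and Fos, Fosb, Jun, Junb, Cd69 and Myc had positive ones. The receptor-induced median was -0.38, with 3 of 18 genes higher in KO, and the handling median was 0.14, with 6 of 17 genes lower. Stimulation in the mouse and handling after death cannot be told apart here by any label, and their parts were not tested.

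**Figure D3:**
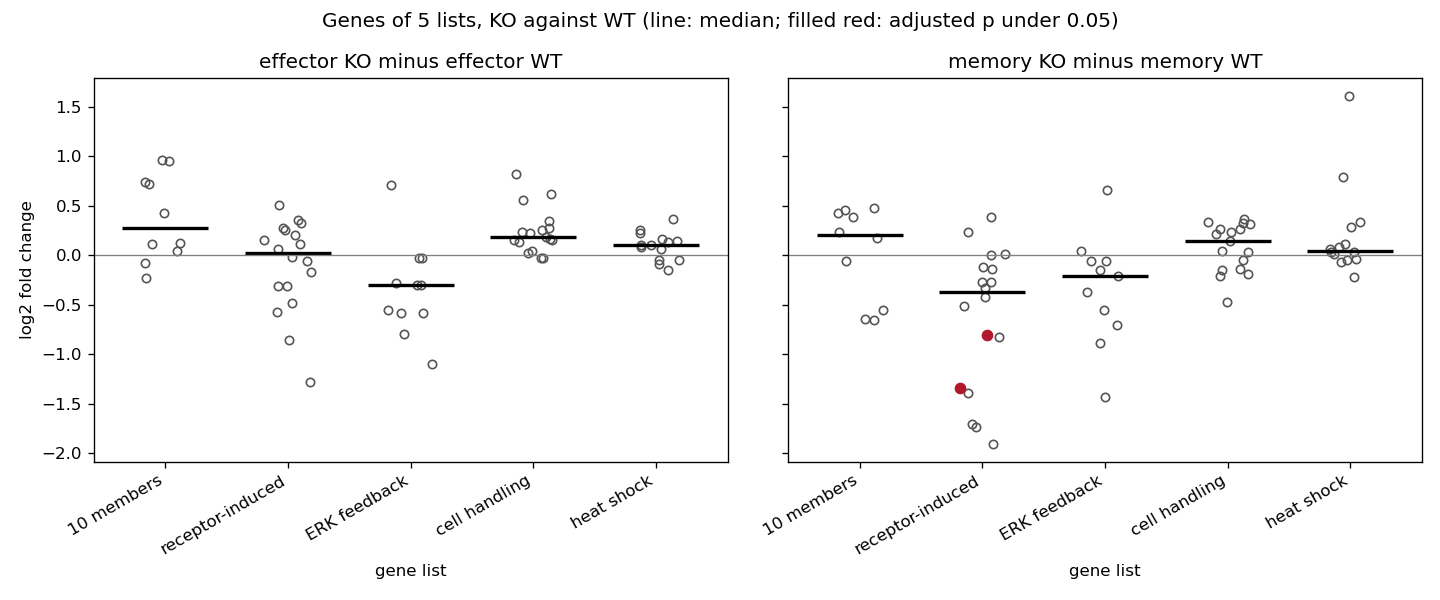
Log2 fold change of KO over WT (vertical axis) of every measured gene of 5 lists, in effector cells (left) and memory cells (right). Each circle is 1 gene, the line is the list's median and filled red circles passed at adjusted p under 0.05. In memory cells the receptor-induced median is -0.38 and the handling median 0.14.

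Effector and memory cells were compared on the same lists. Of the 18 receptor-induced genes, 13 had a higher mean in effector KO than in memory KO, with a median of 0.48. Among them 5 passed as higher and 1 of the 18 as lower. Ccl4 rose by 1.48 ± 0.13 (SE, limma adjusted p = 9.99e-06), Ifng by 1.72 ± 0.24, Ccl3 by 2.25 ± 0.36, Nr4a2 by 1.65 ± 0.45 and Nr4a3 by 0.67 ± 0.19, while Tnf, at -0.83 ± 0.23, fell. Without Effector KO 4, Nr4a3 (adjusted p = 0.0911) and Tnf (adjusted p = 0.0936) no longer passed, while Irf4 and Tnfrsf9 did, at 0.97 and 1.67. In that fit 7 of the 18 passed as higher and 1 as lower in effector KO, not all of them named here. In WT, Ccl4 rose by 0.62 ± 0.13 (adjusted p = 0.0143) and Il2ra fell, at -0.65 ± 0.17 (adjusted p = 0.0447), with a median of 0.20. Among ERK feedback genes Dusp7 was lower in effector cells of both genotypes, at -1.36 ± 0.26 in KO and -1.41 ± 0.26 in WT, and Dusp5 was higher in KO, at 0.54 ± 0.16. Dusp6 and Ier3 passed without Effector KO 4, at 0.84 and 0.75 in KO. Of the handling list, Gadd45b rose by 0.96 ± 0.20 in effector KO against memory KO while Rhob, Zfp36l1, Ier2 and Klf6 fell, at -0.95 ± 0.21, -0.68 ± 0.15, -0.42 ± 0.11 and -0.58 ± 0.17, of which Ier2 (adjusted p = 0.0508) and Klf6 (adjusted p = 0.0872) did not pass without Effector KO 4. In WT Zfp36l1 alone passed, at -0.71 ± 0.15 (limma, adjusted p = 0.0141). Of the 17 genes 12 had a lower mean in effector WT, and the list's median was -0.31, against -0.06 in KO. Heat shock genes had medians of -0.12 in KO and -0.13 in WT, with only Hspe1 passing, at -0.41 ± 0.10 in KO.

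The partners and targets of the members were read from the same fit. Of 13 other AP-1, BATF and MAF genes, none passed between KO and WT. In effector against memory KO, Maf, a factor of the cytokine and inhibitory receptor programme, rose by 2.58 ± 0.40 (SE, limma adjusted p = 0.000876) and Batf, which pairs with JUN proteins, by 0.71 ± 0.18. Bach2, which competes with AP-1 for its sites and preserves memory, fell in effector cells of both genotypes, at -1.78 ± 0.23 in KO and -1.02 ± 0.23 in WT, and Batf3 fell in WT, at -0.92 ± 0.18. Of 14 EGR partners and genes bound by EGR2 or EGR3, none passed between KO and WT. Fasl, Dgkz and Ikzf3 rose and Crtam fell in effector cells of both genotypes, and in KO Crtam did not pass without Effector KO 4 (adjusted p = 0.0937). Without that array 5 of the 14 passed as higher and 1 as lower in effector KO. Dgkz, a diacylglycerol kinase that damps Ras signalling, rose by 0.60 ± 0.08 in KO and 0.43 ± 0.08 in WT, and the death ligand gene Fasl by 1.14 ± 0.15 and 0.70 ± 0.15.

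MYC acts with its partner MAX on genes of ribosome synthesis and metabolism. Of 23 measured MYC target genes, 20 had a lower mean in effector KO than in memory KO and 22 in effector WT than in memory WT, with medians of -0.19 in both. In KO Gnl3 and Polr1b, which serve ribosome synthesis, fell, at -0.85 ± 0.19 and -0.75 ± 0.17 (SE), while Ldha rose by 0.39 ± 0.10, and in WT none passed. Mxd4, Mxd1 and Mxd3, whose products compete with MYC for MAX, rose in effector KO by 1.07 ± 0.15, 0.46 ± 0.13 and 0.76 ± 0.22, and Mxd4 rose in WT by 0.68 ± 0.15 (limma, adjusted p = 0.0198). Without Effector KO 4, Ldha (adjusted p = 0.0671) and Mxd3 (adjusted p = 0.0807) did not pass. In that fit 3 targets passed as lower in effector KO and 1 in effector WT, and 0 as higher. Between KO and WT no target and no partner passed, though Mxd4 did in memory cells without that array, at -0.63 (adjusted p = 0.0403).

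Genes of the CD69 and S1P receptor axis set Cd69 in context. S1pr1, the egress receptor that CD69 opposes, read 8.73, 8.45, 8.37 and 9.43 in effector KO against 7.55, 7.29, 8.04 and 7.71 in effector WT, with no overlap. Its difference was 1.09 ± 0.21 (SE, limma adjusted p = 0.119) and did not pass, nor did that of Klf2, the factor that drives S1pr1, at 1.07 ± 0.24 (adjusted p = 0.258). In memory cells S1pr1 was at 0.47 ± 0.21 and Klf2 at 0.50 ± 0.24. Cxcr6, a chemokine receptor of resident cells, was at -0.71 ± 0.22 in effector and -0.70 ± 0.22 in memory cells and did not pass. Thus Cd69 and S1pr1 had higher means in KO in both subsets. Between effector and memory cells Ccr7, S1pr1 and Itgae fell in both genotypes, Ccr7 at -2.94 ± 0.23 in KO and -2.46 ± 0.23 in WT, and Klf2 fell in WT, at -1.38 ± 0.24. In KO Klf2 was at -0.81 ± 0.24 (adjusted p = 0.0507) and passed without Effector KO 4, at -1.12.

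The members also varied together among arrays of 1 group. Fos lay above its group mean on arrays 1 and 4 and below it on arrays 2 and 3 in all 4 groups. Fosb and Jun followed this split in 3 of the 4 groups, effector WT, memory KO and memory WT, and Junb and Cd69 in effector KO, memory KO and memory WT. In memory WT, Fosb deviated from its mean by 1.07, -0.85, -1.16 and 0.95 on arrays 1 to 4, Jun by 0.49, -0.93, -0.35 and 0.79, and Fos by 0.53, -1.06, -0.29 and 0.82. The spread within 1 group thus reached the size of the KO differences of these genes. Whether the arrays numbered alike share an animal, a day or a sort is not given in the sources used here.

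The Egr genes did not follow that split. In memory KO, Egr1 deviated by -0.55, 0.37, 0.46 and -0.27 on arrays 1 to 4, so it was low where Fos, at 0.59, -0.73, -0.09 and 0.22, was high. Egr2 deviated there by -0.94, 0.26, 0.64 and 0.04, and Egr3 by -0.34, -0.54, 0.56 and 0.33. The Egr genes thus differed in sign among themselves on arrays 2 and 4. The receptor-induced list deviated by -0.23, 0.33, 0.33 and -0.44 on average on the same arrays, and the handling list by 0.16, -0.11, -0.06 and 0.00. In memory WT the handling list deviated by 0.10, -0.16, -0.08 and 0.14, and in effector WT by 0.04, -0.16, 0.03 and 0.09, while the average over the receptor-induced list stayed within 0.05 of its group mean. Its genes did not all do so, since in memory WT Tnfrsf9 ranged from 9.16 to 10.69 and the list's summed signal from 12.89 to 13.49. In effector KO the handling list deviated by 0.16, 0.00, -0.04 and -0.12, and the receptor-induced list by 0.25, 0.07, 0.00 and -0.33. Both lists were highest on array 1 and lowest on array 4 there. Egr1, at 0.51, -0.22, 0.07 and -0.35 in effector KO, was also lowest on array 4, where Fos was at 0.17.

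**Figure D4:**
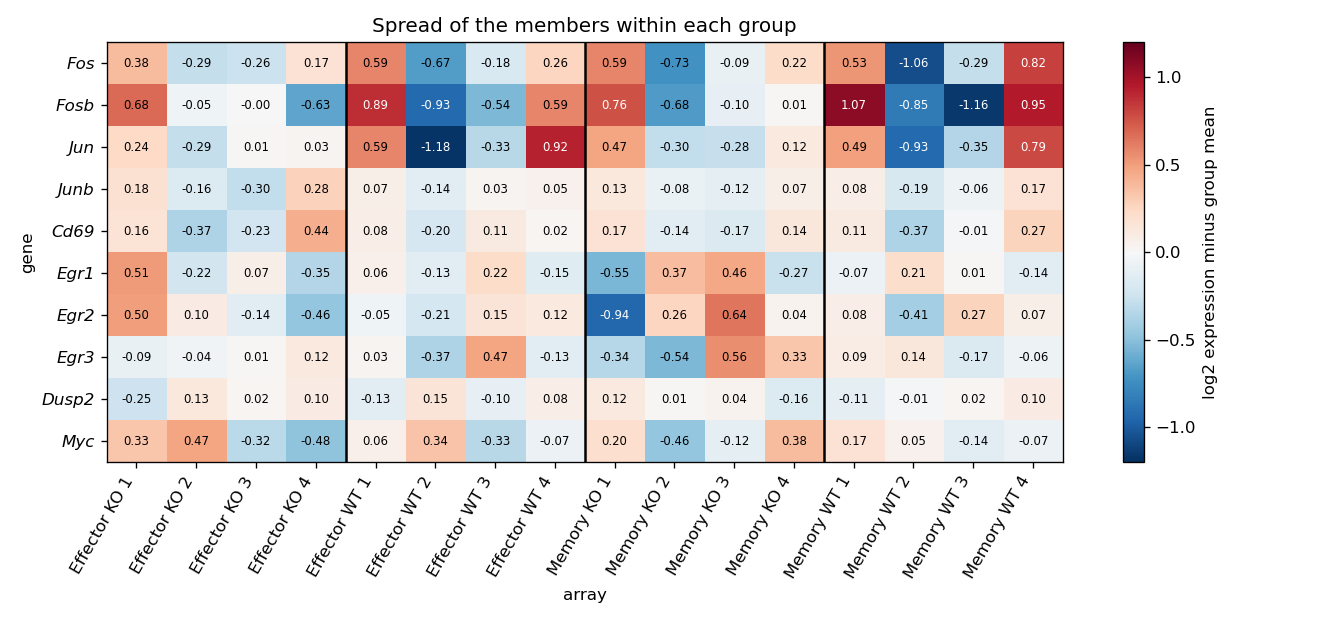
Log2 expression minus the group mean for the 10 genes (rows) on the 16 arrays (columns), with black lines between groups and red above, blue below the mean. Arrays 1 and 4 are red and arrays 2 and 3 blue for Fos in each group. Egr1 in memory KO shows the opposite, with -0.55 and -0.27 on arrays 1 and 4.

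Likeness over the 16 arrays was measured as the root mean square difference on the log2 scale after centring each gene, among 11445 genes, for the members whose group means span at least 1. Ppp1r15a was the gene most like both Fosb (0.44) and Jun (0.39), whose own root mean squares were 0.85 and 0.77. Ppp1r15a read 8.33, 7.71, 7.67 and 7.93 in effector KO, 7.42, 6.65, 6.83 and 7.46 in effector WT, 8.68, 7.54, 7.55 and 8.45 in memory KO and 8.10, 7.41, 6.99 and 8.24 in memory WT, so it too was highest on arrays 1 and 4 in each group. The gene next nearest to Jun was Irf7, at 0.44, and next to Fosb Mir1938, at 0.49. Egr1 was most like Incenp (0.17) and Cdc6 (0.18), both genes of dividing cells, against its own 0.50, and Egr2 most like E2f7 (0.25) and Glrx (0.26), against 0.58. Cd69 was most like Tmem251 (0.14) and Ehd3 (0.16), against 0.46, and Myc most like Smyd3 and Prkd3 (0.21 each), against 0.53.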

How the data were processed

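RNA of 16 sorted samples was measured on 1-colour Affymetrix arrays. Per the labels' protocols, RNA was isolated with an RNeasy Micro Kit, and the GeneChip WT Pico kit amplified and labelled an input of 1 ng. The deposited values of 41345 probe sets were taken as log2 expression. The base was inferred from their range, 0.7365 to 14.0453, and the authors' normalization is not given in the sources used here. Array medians lay between 4.1169 and 4.2214, and without detection calls the number of arrays limits the precision.

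The platform annotation gave 23521 probe sets exactly 1 symbol, 1814 several and 16010 none. Of the first, 23328 matched RefSeq genes of GRCm38.p6 by Entrez ID, and positions and promoters come from there. Only single-symbol probe sets were used, the brightest per gene, with no filter on dim genes. limma 3.58.1 in R 4.3.3 fitted 4 group means to all 16 arrays (12 residual and 4.23 prior degrees of freedom), with two-sided tests and Benjamini-Hochberg adjustment over 22180 genes per comparison. The threshold was an adjusted p of 0.05, and errors of differences are SEs of this fit. The method was tested on simulated data.

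The members and lists were chosen with earlier results of these data known. List genes are named where they passed or are among the 4 with the smallest p. The alternatives were quantile normalization, median centring, a filter to genes above the array median on at least 4 arrays, the mean over probe sets, a variance trend, array weights, only the groups compared, the replicate number as a block, and leaving out each array. The fit of the list genes without Effector KO 4 was added after the data were seen. Tables and figures used Python 3.11.15 with numpy 2.4.6, pandas 2.3.3 and matplotlib 3.10.9. Listed genes without a single-symbol probe set were not analysed here.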

Additional observations from a re-analysis of the deposited data

Results flagged for a closer look

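Junb in effector WT had 1 array marked as apart from the others of its group. Effector WT 2 read 9.06 on the log2 scale, while the other 3 arrays read 9.24 to 9.27, and its gap was 0.83 of the group's whole range, just past Dixon's 95% critical value for 4 samples. This was the only such array in 40 groups of 4 values examined (10 genes in 4 groups), and chance marks about 1 group in 20.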

How the results depend on the processing

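No member passed between KO and WT in either subset, or in the interaction, under any of the alternatives run. The interaction was not run on the groups compared alone. Between effector and memory KO, 3 members passed, 0 in the fit on those groups alone, and 2 to 4 with 1 array left out. Cd69 joined without Effector KO 4 and Egr3 without Memory KO 3 (adjusted p = 0.0432), while Egr2 was lost without Effector KO 1. Between effector and memory WT, 1 member passed, and 0 to 1 with 1 array left out. Cd69 kept its call only without Effector KO 2, Effector KO 4, Memory KO 1 or Memory WT 2. There 0 passed under quantile normalization (Cd69, adjusted p = 0.0501). With array weights 2 passed (Cd69 and Myc), as in the fit on those groups alone (2, Cd69 and Myc). Apart from the fewer samples, the cause was not tested. Fos between effector and memory KO turned to 0.02 under quantile normalization and ran from -0.26 to 0.18 with 1 array left out. Other signs that turned when 1 array was left out were those of Junb between effector and memory KO (-0.13 to 0.06), of Fosb in the interaction (-0.05 to 0.70), and, between effector KO and WT, of Dusp2 (-0.01 to 0.12), Egr1 (-0.25 to 0.04), Egr2 (-0.06 to 0.26) and Egr3 (-0.01 to 0.27). Of 1190 alternative values of members, 1150 kept direction and side of the threshold. The replicate number as a block left 4 members called between effector and memory KO (Egr1, Egr2, Jun and Myc) and 2 in WT (Jun, adjusted p = 0.000598, and Cd69), and none between KO and WT. No label ties the numbers, and they were not taken as pairs. Deviations of same-numbered arrays correlated over genes at 0.018 to 0.147 between effector and memory KO and at 0.087 to 0.239 in WT. Even so, 3 of 4 effector KO and 4 of 4 effector WT arrays were most like the memory array of their own number. The calls of Jun between the subsets depend on this choice. Between KO and WT the correlations were -0.032 to 0.138 in effector and 0.016 to 0.119 in memory cells, with 2 of 4 in each. Counts over all genes, 12, 25, 0, 1649 and 715 in the order effector KO against WT, memory KO against WT, interaction, effector against memory in KO and in WT, moved most as follows. On the groups compared alone they were 4, 7, 600 and 1320, the interaction aside. Array weights gave 42 in memory KO against WT and 1644 in effector against memory WT, and the block gave 4 in effector and 40 in memory KO against WT. With 1 array left out they ranged over 4 to 42, 11 to 249, 0 to 5, 961 to 2044 and 359 to 1037. The 42 came without Effector KO 2, the 249 and the 5 without Memory KO 3, the 961 without Memory KO 4 and the 359 without Memory WT 1.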
